A study of Homo sapiens with 14 samples.

Results

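The ADAM genes encode membrane-anchored zinc metalloproteases, and 7 of them, ADAM19, ADAM12, ADAM8, ADAM9, ADAM10, ADAM15 and ADAM17, were followed in PANC-1 cells, an established line from a human pancreatic carcinoma. They are 7 of the 18129 genes on the arrays that had a probe set assigned to exactly 1 gene, and they had 31 such probe sets of 49193. Each gene is represented by its brightest probe set, by mean signal across the 14 arrays, and its others are described beside it. ADAM19 was chosen by its measured difference between TGFb1-treated and control cells on these same arrays, so its values against either group are given as a description without a test. All 7 members had a mean signal above the limit for testing, 6.89. The control mean of ADAM19 lay below it, while its mean without the valproate arrays was 8.15 and its mean over the acriflavine and control arrays alone was 6.95.

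The 4 groups were read on Affymetrix 3-prime expression arrays. Cells grown in 10% serum were held for 24 h in 1% serum, then treated for 48 h with TGFb1 at 5 ng/ml plus acriflavine at 2.5 µM (3 arrays), TGFb1 plus sodium valproate at 2 mM (3 arrays), TGFb1 alone (4 arrays) or vehicle, the control (4 arrays), which the design text calls untreated. TGFb1 is a cytokine that drives epithelial-to-mesenchymal transition (EMT), in which epithelial cells lose their junctions and gain migratory features. Acriflavine is a mixture of acridine dyes and valproate a histone deacetylase inhibitor, and the labels name both as EMT inhibitors in these cells. All groups are the same line and went through the same low-serum step. The labels call the replicates biological without saying which cultures they came from, so p-values measure the spread between these samples. Neither acriflavine nor valproate without TGFb1 was analysed here.

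ADAM proteases cut the ectodomains of membrane proteins from the cell surface, a step called shedding, which releases growth factors and receptors or loosens cell contacts. They are made with an inhibitory prodomain that proprotein convertases such as furin remove, and some TIMP proteins block some of the active enzymes. In epithelial cells ADAM10 and ADAM17 are the best-known sheddases, the one for Notch receptors and cadherins and the other for TNF and ligands of the EGF receptor.

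Values are log2 intensities, so a difference of 1 is a doubling of signal, and levels of different probe sets cannot be set against each other. Medians of the 14 arrays lay between 7.16 and 7.21. TGFb1 replicates 4 and 2 and control replicate 4 stood apart from their groups, with SDs of their deviations from the group mean over genes of 0.375, 0.256 and 0.250, against 0.0665 to 0.160 on the other 11 arrays. In a bulk extract, fewer cells carrying a transcript and less of it per cell cannot be told apart. Below, rose and fell mean that a gene passed at a Benjamini-Hochberg adjusted p of 0.05 in a limma fit over all genes tested. The TGFb1 response itself was present: SMAD7, SNAI1, COL1A1 and PMEPA1, known targets of the pathway, all rose with TGFb1 against control, by 1.31 to 3.68, and all 4 fell when acriflavine was added to TGFb1.

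Cell type markers were read as whole lists, by the mean of a list on each array. The 4 keratins of ductal epithelium averaged 12.4 to 12.5 with acriflavine, 12.1 to 12.3 with valproate, 11.8 to 12.2 with TGFb1 and 12.3 to 12.7 in control arrays, and KRT8, KRT18 and KRT19 fell with TGFb1. The 5 fibroblast markers averaged 5.28 to 5.43 with acriflavine, 6.75 to 6.998 with valproate, 5.91 to 6.36 with TGFb1 and 5.32 to 5.48 in control arrays. DCN was at 4.10 to 4.24 in every group, LUM averaged 6.14 with valproate against 3.40 to 3.54 elsewhere, and only COL1A1, a response gene above, was bright enough to be tested. The 5 leukocyte markers averaged 5.81 to 5.90 with acriflavine, 6.31 to 6.402 with valproate, 6.04 to 6.35 with TGFb1 and 5.92 to 6.04 in control arrays. PTPRC was at 3.73 to 3.83, LAPTM5 rose by 0.87 with TGFb1 and fell by 1.05 with acriflavine against TGFb1, and CD68 fell by 0.76 in the same comparison with acriflavine. The 4 endothelial markers averaged 6.45 to 6.57 with acriflavine, 6.79 to 6.90 with valproate, 6.45 to 6.83 with TGFb1 and 6.10 to 6.42 in control arrays. CDH5 was at 5.12 to 5.35 and PECAM1 at 6.03 to 6.18, while ESAM rose by 1.73 with TGFb1 and by 1.01 with valproate against TGFb1. Of 3 hepatocyte markers 2 were tested and neither passed a comparison. COL1A1, LAPTM5 and ESAM were thus higher with TGFb1 than in control cells, as ADAM19 was, and their part in its values was not tested.

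ADAM19, also called meltrin beta, is a sheddase known for cleaving neuregulins and for its role in heart development in the mouse. It was high in all TGFb1 and TGFb1 plus valproate arrays, low in control arrays and in between with acriflavine. Its log2 intensity was 7.82, 7.77 and 7.68 in the TGFb1 plus acriflavine arrays. In the TGFb1 plus valproate arrays it was 10.80, 10.59 and 10.70. It was 9.95, 10.20, 9.89 and 10.97 in the TGFb1 arrays, against 5.99, 6.29, 6.27 and 6.82 in the control arrays. The acriflavine and control groups did not overlap each other or either of the other groups, while the valproate arrays lay inside the range of the TGFb1 arrays, whose replicate 4 was the highest of all.

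In group means, ADAM19 stood at 7.76 ± 0.072 with TGFb1 plus acriflavine (SD, n = 3) and 10.70 ± 0.105 with TGFb1 plus valproate (SD, n = 3), against 10.25 ± 0.498 with TGFb1 (SD, n = 4) and 6.35 ± 0.346 in control cells (SD, n = 4). The order from low to high was therefore control, acriflavine, TGFb1 and valproate. TGFb1 minus control was 3.91 ± 0.211 (SE), a 15.0-fold higher signal and rank 1 among all rises in that comparison. TGFb1 plus acriflavine minus TGFb1 was -2.50 ± 0.228 (SE), and TGFb1 plus acriflavine still stood 1.41 ± 0.228 (SE) above control. TGFb1 plus valproate minus TGFb1 was 0.44 ± 0.228 (SE), with a 95% interval of -0.05 to 0.94, and the groups overlapped. Without TGFb1 replicate 4 this difference was 0.68 and the groups did not overlap, the lowest valproate array reading 10.59 against 10.20 for the highest TGFb1 array left. With the replicate number as a block it was 0.64. Over 25 alternative settings this difference ran from 0.10 to 0.78, and it too is given without a test. These comparisons share their TGFb1 or control arrays. TGFb1 minus control was 3.83 within replicates 1 to 3 and 4.15 within replicates 4. The difference of means between the inhibitors uses neither the TGFb1 nor the control arrays. ADAM19 was lower with acriflavine than with valproate by a difference of -2.94 ± 0.244 (SE, limma, Benjamini-Hochberg adjusted p = 4.50e-07). This SE and p come from the fit over all groups, so the TGFb1 and control arrays do enter the estimate of the spread.

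**Figure D1:**
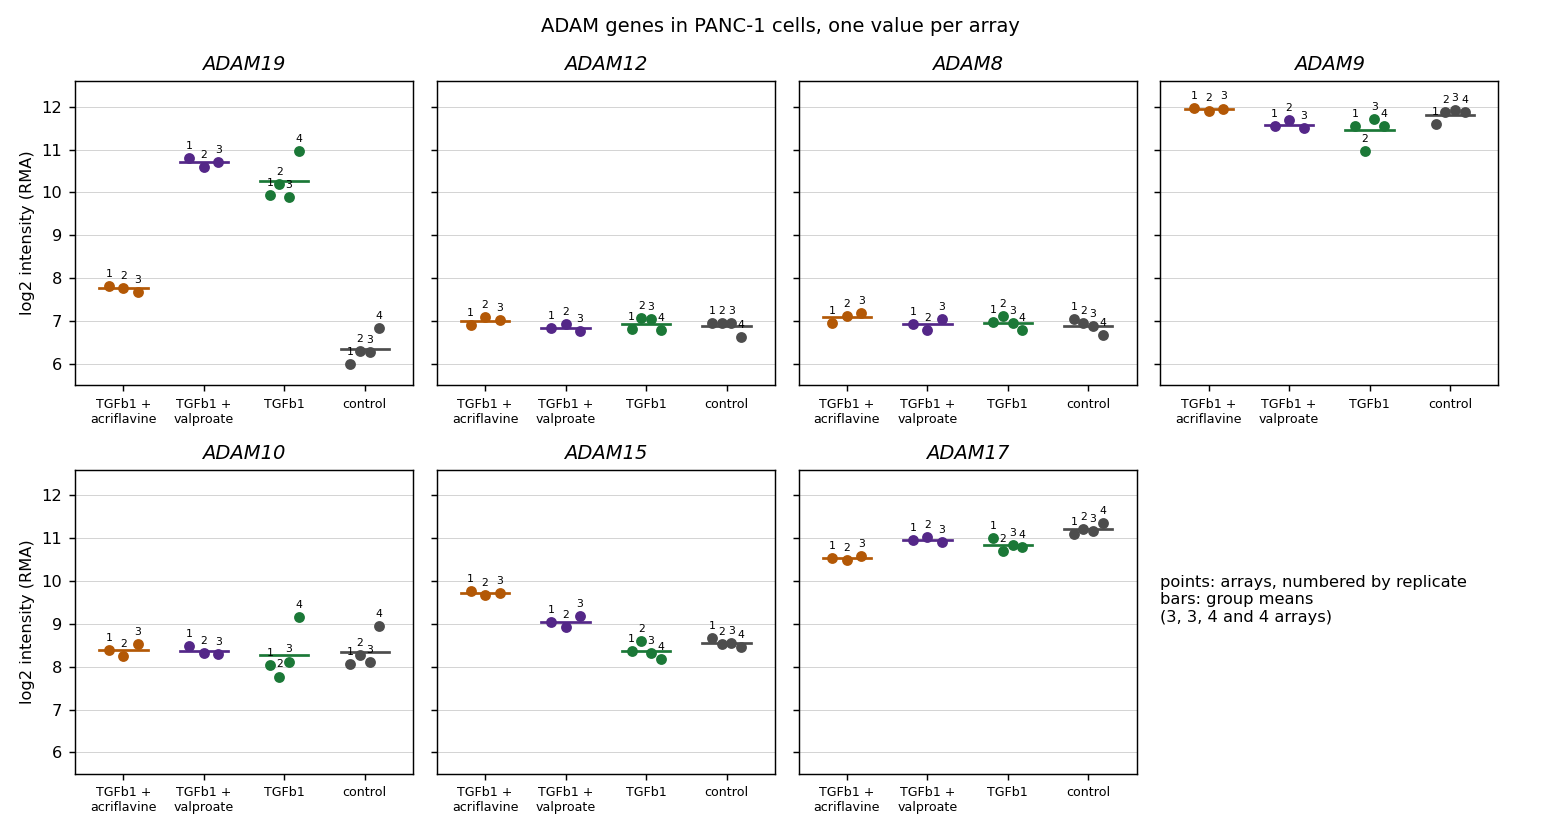
Log2 intensity (RMA, vertical axis) of the 7 ADAM genes on each of the 14 arrays, in TGFb1 plus acriflavine, TGFb1 plus valproate, TGFb1 and control cells. Points are arrays numbered by replicate and bars are group means. ADAM19 spans 5.99 to 10.97 over the arrays, ADAM15 is highest in all 3 acriflavine arrays, and ADAM12 and ADAM8 stay between 6.63 and 7.19.

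The size of the ADAM19 change depended on the probe set. Its brightest, 11723188_s_at, gave the values above. A second, 11723190_at, differed in the same direction but less, by 0.50 for TGFb1 minus control and by -0.58 for acriflavine minus valproate (limma, adjusted p = 0.00077 for acriflavine minus valproate). It averaged 6.51 over all arrays, below the limit of 6.89 for testing a gene, and was fitted in the place of the brightest. 11723189_a_at differed by 0.41 for TGFb1 minus control, but by only -0.16 for acriflavine minus TGFb1. For acriflavine minus valproate it gave -0.15 and did not pass (limma, adjusted p = 0.418). 11759381_at showed no such pattern, at 0.05 for TGFb1 minus control. It gave -0.11 for acriflavine minus control, -0.09 for valproate minus control and -0.02 for acriflavine minus valproate (limma, adjusted p = 0.912). Both also averaged below 6.89 and were fitted in the same way. With the mean of the 4 probe sets in place of the brightest, the TGFb1 minus control difference was 1.21, the acriflavine minus TGFb1 difference was -0.82 and the acriflavine minus valproate difference was -0.92.

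By Pearson correlation over the 14 arrays, the genes most like ADAM19 were FHOD3, a formin, at 0.984, TGFBI, a secreted matrix protein induced by TGFb1, at 0.982, and JAG1, a Notch ligand, at 0.978. P4HA3, a subunit of collagen prolyl hydroxylase, and PITPNC1, a lipid transfer protein, followed at 0.976 each, as did LRP4, a membrane receptor, at 0.976. All 6 were highest in the valproate or TGFb1 group and lowest in control cells, which is the group structure the correlation reads. The points share their arrays and normalization. Within groups the correlation with ADAM19 was 0.918 for FHOD3, 0.751 for TGFBI, 0.727 for P4HA3, 0.565 for PITPNC1 and 0.515 for LRP4, but -0.02 for JAG1. Of these 6 genes P4HA3 differed most, by 2.77 for TGFb1 minus control and by -2.43 for acriflavine minus TGFb1. None of the other 6 ADAM members was correlated this way: their r with ADAM19 ran from -0.603 for ADAM9 to 0.0775 for ADAM10.

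The bases before the start of ADAM19 are shown beside those of ADAM15 and ADAM17, the members that passed in the most comparisons, because ADAM15 was higher with acriflavine while ADAM19 and ADAM17 were lower. Promoter sequence from RefSeq (GRCh38.p14) was found for 6 of the 7 members, and the 250 bases upstream of the start are given 5′ to 3′ on the gene's strand. Capitals mark matches to the SMAD element CAGAC, the E-box CAGGTG and the GC box GGGCGG, each on either strand, and the AP-1 motif TGANTCA was searched too.
ADAM19 (chr5:157575776-157576025, minus strand): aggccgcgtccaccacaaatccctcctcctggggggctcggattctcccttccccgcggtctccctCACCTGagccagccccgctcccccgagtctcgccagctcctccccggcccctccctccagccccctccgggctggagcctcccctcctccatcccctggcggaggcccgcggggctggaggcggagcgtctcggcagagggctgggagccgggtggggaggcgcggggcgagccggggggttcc
ADAM15 (chr1:155051066-155051315, plus strand): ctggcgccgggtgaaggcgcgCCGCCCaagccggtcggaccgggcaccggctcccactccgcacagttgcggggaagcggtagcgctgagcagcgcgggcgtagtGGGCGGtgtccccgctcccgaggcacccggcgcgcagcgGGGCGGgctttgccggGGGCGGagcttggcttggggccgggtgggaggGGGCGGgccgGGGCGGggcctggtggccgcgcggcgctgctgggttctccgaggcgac
ADAM17 (chr2:9555831-9556080, minus strand): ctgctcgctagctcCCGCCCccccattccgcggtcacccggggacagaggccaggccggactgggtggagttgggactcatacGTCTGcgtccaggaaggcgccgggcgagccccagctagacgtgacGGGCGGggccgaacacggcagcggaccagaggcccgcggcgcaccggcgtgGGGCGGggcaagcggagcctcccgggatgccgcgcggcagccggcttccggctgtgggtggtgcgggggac
ADAM19 held 1 E-box, as CACCTG on the opposite strand 184 to 179 bases upstream, and none of the other 3 motifs. ADAM15 held 6 GC boxes and none of the other motifs, and ADAM17 held 3 GC boxes and 1 SMAD element. Of the members not printed, ADAM8 held 2 E-boxes and 3 GC boxes, ADAM12 held 3 GC boxes and 1 SMAD element, and ADAM10 held 1 GC box and 1 SMAD element. Whether any motif goes with the differences between groups was not tested. Over 35116 promoters of this length, 38.0% held CAGAC, 17.5% CAGGTG, 42.6% GGGCGG and 6.6% TGANTCA. GC content was 76.4% for ADAM19, 79.6% for ADAM15 and 75.6% for ADAM17, against a median of 58.0% over all promoters.

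Of the 6 other members, ADAM15 and ADAM9 rose and ADAM17 fell when acriflavine was added to TGFb1, and ADAM15 rose when valproate was. In TGFb1 plus acriflavine against TGFb1, 43.6% of the 10877 genes tested passed (24.5% rose and 19.1% fell). In TGFb1 plus valproate against TGFb1, 31.3% passed (15.1% rose and 16.2% fell). In TGFb1 against control, 18.4% passed (8.39% rose and 9.97% fell), and of the 6 other members ADAM17 passed and fell. Between the inhibitors 51.5% passed (28.3% higher and 23.3% lower with acriflavine), and ADAM15 was higher and ADAM17 lower. For acriflavine against control 47.7% passed (26.1% rose and 21.6% fell), and for valproate against control 36.7% (16.9% rose and 19.8% fell), ADAM15 rising and ADAM17 falling in both. With so many genes changing, 3 of 6 members with acriflavine is a share near that of all genes, and nothing particular to the ADAM family is read from it. The median difference over the 7 members was 0.11 for acriflavine minus TGFb1, 0.13 for valproate minus TGFb1 and -0.08 for TGFb1 minus control, against 0.03, -0.01 and 0.00 over all genes tested.

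ADAM15, which carries an integrin-binding motif in its human disintegrin domain, was highest with acriflavine. It read 9.77, 9.67 and 9.71 in the TGFb1 plus acriflavine arrays. With TGFb1 plus valproate it read 9.04, 8.93 and 9.18. The TGFb1 arrays read 8.36, 8.61, 8.31 and 8.18, against 8.67, 8.52, 8.55 and 8.46 in control arrays. The acriflavine arrays lay above all others and the valproate arrays lay above both remaining groups, while TGFb1 and control overlapped. Acriflavine minus TGFb1 was 1.35 ± 0.100 (SE), a 2.56-fold rise (limma, adjusted p = 2.75e-07), and valproate minus TGFb1 was 0.69 ± 0.100 (SE), a 1.61-fold rise (adjusted p = 0.000154). Acriflavine exceeded valproate by 0.66 ± 0.107 (SE, adjusted p = 0.000154). TGFb1 minus control was -0.19 ± 0.093 (SE, adjusted p = 0.188), but -0.27 (adjusted p = 0.0396) without TGFb1 replicate 2. Against control, the differences were 1.17 with acriflavine and 0.50 with valproate. Of its 6 probe sets, 5 passed in acriflavine minus TGFb1, with differences of 0.56 to 1.41. In valproate minus TGFb1, 3 of the 6 passed, and 11745926_a_at gave 0.29 (adjusted p = 0.0645), 11745927_x_at 0.25 (adjusted p = 0.161) and 11760450_x_at 0.10 (adjusted p = 0.537). The dimmest, 11760450_x_at, gave 0.07 there and -0.03 for acriflavine minus valproate.

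ADAM17, the TNF-converting enzyme, was highest in control cells and lowest with acriflavine. Its values were 10.54, 10.48 and 10.58 with TGFb1 plus acriflavine. TGFb1 plus valproate arrays read 10.96, 11.03 and 10.92. TGFb1 arrays read 10.995, 10.712, 10.840 and 10.805, against 11.10, 11.21, 11.17 and 11.35 in control arrays. No TGFb1 array reached the lowest control array, and no acriflavine array reached the lowest TGFb1 array. TGFb1 minus control was -0.37 ± 0.077 (SE, adjusted p = 0.00433), a 1.29-fold fall, and acriflavine minus TGFb1 was -0.30 ± 0.084 (SE, adjusted p = 0.00956). Acriflavine minus control was -0.67 ± 0.084 (SE, adjusted p = 2.63e-05), and acriflavine minus valproate -0.43 ± 0.089 (SE, adjusted p = 0.00109). TGFb1 plus valproate stood at -0.24 against control (adjusted p = 0.0374), a call lost without acriflavine replicate 1, any 1 of the 3 valproate arrays or control replicate 2, 3 or 4, at adjusted p between 0.0520 and 0.130. The call held in 15 of the 25 alternative settings. Valproate minus TGFb1 was 0.13 ± 0.084 (SE, adjusted p = 0.266). Within replicates 1 to 3 TGFb1 minus control was -0.31 and within replicates 4 it was -0.55. Of its 4 probe sets, 3 fell with TGFb1, by 0.37 to 0.43, while the dim 11762039_at gave -0.11, and 2 of the 4 fell with acriflavine against TGFb1.

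ADAM9, a sheddase with a broad tissue range, was high and even with acriflavine, at 11.97, 11.91 and 11.96, and with valproate read 11.56, 11.69 and 11.51. TGFb1 arrays read 11.56, 10.97, 11.71 and 11.54, against 11.60, 11.87, 11.92 and 11.87 in control arrays. TGFb1 replicate 2 was the lowest of all, and the acriflavine arrays lay above every TGFb1 array. Acriflavine minus TGFb1 was 0.50 ± 0.143 (SE, adjusted p = 0.0112), a 1.42-fold rise. TGFb1 minus control was -0.37 ± 0.132 (SE, adjusted p = 0.0679). Without TGFb1 replicate 2 it was -0.21 (adjusted p = 0.124). It passed without control replicate 1 (-0.44, adjusted p = 0.0499), without TGFb1 replicate 3 (-0.46, 0.0314) or without TGFb1 replicate 4 (-0.40, 0.0452). The 3 other probe sets of ADAM9 fell with TGFb1, by 0.32 to 0.48, at adjusted p between 0.032 and 0.047. All 4 probe sets rose with acriflavine against TGFb1. Acriflavine minus valproate was 0.36 ± 0.152 (SE, adjusted p = 0.0617) although those groups did not overlap, and it passed without TGFb1 replicate 2 (adjusted p = 0.00518) or replicate 3 (0.0493).

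ADAM10, the main sheddase of Notch and E-cadherin, passed no test over all arrays. It read 8.38, 8.24 and 8.54 with TGFb1 plus acriflavine and 8.49, 8.32 and 8.29 with TGFb1 plus valproate. TGFb1 arrays read 8.05, 7.77, 8.12 and 9.16, against 8.06, 8.28, 8.12 and 8.95 in control arrays. Replicate 4 was the highest in both of those groups. Acriflavine minus TGFb1 was 0.11 ± 0.275 (SE, adjusted p = 0.776; 95% interval -0.48 to 0.70) and TGFb1 minus control was -0.08 ± 0.255 (SE, adjusted p = 0.874). Without replicate 4 of both groups, acriflavine minus TGFb1 was 0.41 (adjusted p = 0.00499) and valproate minus TGFb1 0.39 (adjusted p = 0.00893). The wide interval leaves a rise of that size inside it. None of the 4 ADAM10 probe sets passed in any comparison.

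ADAM12, a protease tied to Tks5-dependent invasive protrusions, and ADAM8, a sheddase linked to invasion of pancreatic carcinoma, had low signal, with means of 6.91 and 6.95 over all arrays, just above the 6.89 needed for a gene to be tested. ADAM12 ran between 6.63 and 7.08 over the arrays and ADAM8 between 6.67 and 7.19, and every pair of groups overlapped. Neither passed any comparison, with adjusted p from 0.228 to 0.832 for ADAM12 and from 0.145 to 0.855 for ADAM8. A dimmer ADAM12 probe set, 11722199_at, was higher with valproate by 0.53 against TGFb1 (adjusted p = 0.00479) and by 0.70 against control, and differed by -0.72 for acriflavine minus valproate. The probe set 11722200_s_at gave 0.50 for valproate minus control and -0.48 for acriflavine minus valproate. One ADAM8 probe set, 11761343_a_at, was higher by 0.51 with acriflavine against TGFb1 (limma, adjusted p = 0.00454). These probe sets averaged 4.76 (11722199_at), 4.20 (11722200_s_at) and 5.87 (11761343_a_at) over all arrays, below the 6.89 needed for a gene to be tested. Their adjusted p comes from fitting each in the place of its gene's brightest probe set.

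**Figure D2:**
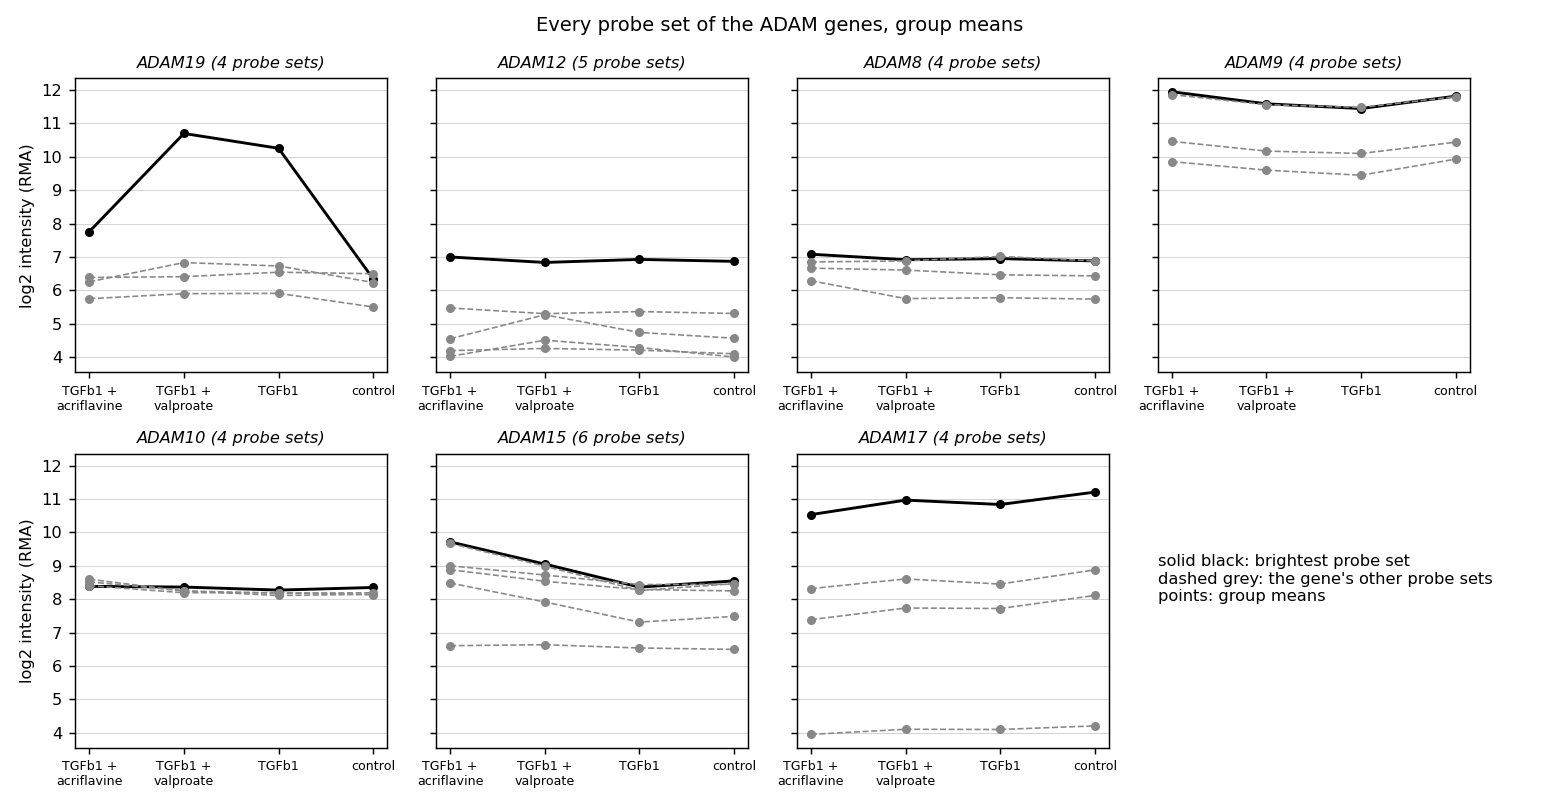
Group means of log2 intensity (RMA, vertical axis) for every probe set of the 7 ADAM genes, in TGFb1 plus acriflavine, TGFb1 plus valproate, TGFb1 and control cells. Solid black lines are the brightest probe set of a gene and dashed grey lines the others. For ADAM19 the brightest probe set spans 6.35 to 10.70, while its other 3 differ by 0.60 or less between valproate and control.

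**Figure D3:**
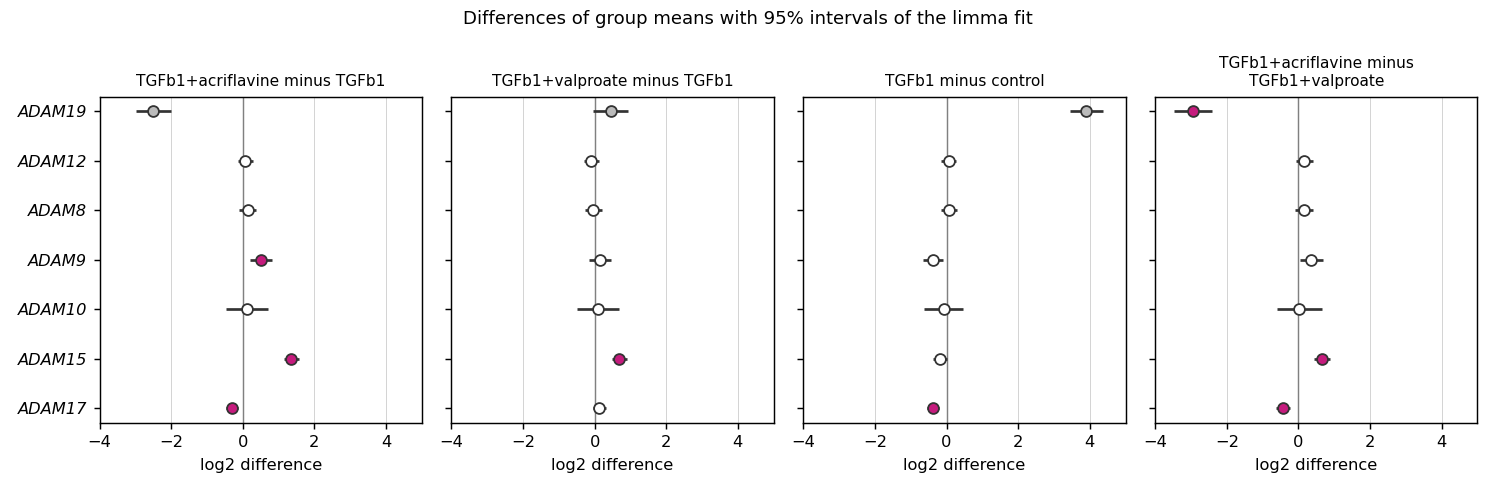
Log2 differences of group means with 95% intervals of the limma fit (horizontal axis) for the 7 ADAM genes in 4 comparisons. Filled magenta points passed at an adjusted p of 0.05, white points did not, and grey points mark ADAM19 comparisons given without a test. ADAM15 lies to the right of 0 with both inhibitors and ADAM17 to the left of 0 in 3 of the panels.

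Genes that act on ADAM proteases and genes for their substrates were read from lists, where with acriflavine or with valproate means added to TGFb1 and set against TGFb1 alone. The shares of each list that passed stand against 18.4% of all genes with TGFb1, 43.6% with acriflavine and 31.3% with valproate, and nothing particular to a list is read from them. Of 5 genes listed as inhibitors, 3 were tested (TIMP1, TIMP2 and RECK), while TIMP3 and TIMP4 were too dim. In those comparisons 1, 2 and 1 of the 3 passed. Which of the ADAM members each of them acts on was not tested. TIMP2 rose with TGFb1 by 1.27 ± 0.13 (SE, adjusted p = 1.48e-05) and fell by 0.99 ± 0.14 (SE, adjusted p = 9.35e-05) with acriflavine against TGFb1. RECK, a membrane-anchored inhibitor, fell by 0.34 with acriflavine, and TIMP1 rose by 0.47 with valproate. Of 18 genes for maturation and partners, 17 were tested. With TGFb1 against control 4 rose and 1 fell, with acriflavine against TGFb1 4 rose and 3 fell, and with valproate against TGFb1 7 rose and none fell, or 29.4%, 41.2% and 41.2% of the list in that order. Their median difference was 0.18 with TGFb1, -0.12 with acriflavine and 0.19 with valproate. FURIN, the convertase that removes the prodomain, rose by 1.09 ± 0.10 (SE) with TGFb1, and PCSK6, another convertase, fell by 0.69. PACSIN3, which binds ADAM12 cytoplasmic tails, rose by 0.59 with TGFb1 and fell by 0.87 with acriflavine. RHBDF2, an iRhom that carries ADAM17 to the surface, rose by 0.48 with acriflavine and 0.56 with valproate. SH3PXD2A, which encodes Tks5, rose by 1.25 with valproate, and TSPAN33, a tetraspanin partner of ADAM10, by 1.42. Without replicate 4 of both groups, 8 of the 17 rose with TGFb1 in place of 4, and 2 of the 3 inhibitors in place of 1. With the replicate block 2 of the 3 inhibitors rose with TGFb1 as well. Over all 10877 genes, more passed in these settings too. Without replicate 4 of both groups, 3155 passed with TGFb1 in place of 1997, 6291 with acriflavine in place of 4738 and 5208 with valproate in place of 3402. The block gave 3148, 5784 and 4575. Nothing particular to a list is read from such gains, here or below.

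Of the secreted relatives, 2 of 18 ADAMTS genes on the arrays were tested. ADAMTS1 fell with TGFb1 by 0.83 and rose by 1.66 with acriflavine and 0.67 with valproate against TGFb1. ADAMTS2, a procollagen peptidase, rose by 0.40 with TGFb1 and fell by 0.45 with acriflavine. Of 13 further ADAM genes on the arrays, 11 were too dim to be tested, and ADAM11 and ADAM33 passed none of these comparisons.

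Known substrates of the family were read next. Of 5 EGF family ligands tested, 1 fell with TGFb1, 2 rose with acriflavine and 3 rose with valproate, or 20% of the 5 against 18.4% of all genes, 40% against 43.6% and 60% against 31.3%. Their median differences were -0.18, -0.26 and 0.52. EREG, which encodes epiregulin, fell with TGFb1 and rose with both inhibitors. It averaged 8.12 ± 0.101 with acriflavine (SD, n = 3) and 8.11 ± 0.153 with valproate (SD, n = 3), against 6.32 ± 0.455 with TGFb1 (SD, n = 4) and 8.10 ± 0.334 in control cells (SD, n = 4). NRG2, a neuregulin, rose by 0.87 with acriflavine and by 0.52 with valproate, and TGFA rose by 0.84 with valproate. HBEGF and NRG1 did not pass in these comparisons. With the replicate block, 2 ligands also fell with acriflavine. Without replicate 4 of both groups, 2 ligands also fell with acriflavine and 1 with valproate. Of all genes, 6291 and 5208 passed there in place of 4738 and 3402. Of 4 ERBB receptors, 2 were tested, with a median difference of -0.39 for TGFb1 minus control. EGFR fell by 0.62 with TGFb1 (limma, adjusted p = 0.0421) and the other did not pass, or 50% against 18.4% of all genes. Neither passed with acriflavine or with valproate.

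Among 8 Notch receptors and ligands tested, 2 rose with TGFb1, 2 rose and 1 fell with acriflavine, and 1 rose and 1 fell with valproate, or 25% against 18.4% of all genes, 37.5% against 43.6% and 25% against 31.3%. Their median differences were 0.06, 0.04 and 0.05. With the replicate block 3 rose and 1 fell with TGFb1. JAG1 rose by 2.12 ± 0.11 (SE) with TGFb1, fell by 1.41 ± 0.12 (SE) with acriflavine and rose by 0.34 with valproate. NOTCH4 rose by 0.51 with TGFb1 and fell by 0.62 with valproate. NOTCH1 and JAG2 rose with acriflavine by 0.34 and 0.47. Of 5 gamma-secretase subunits, which cut the stubs that shedding leaves, 3 rose with acriflavine, PSEN2 by 0.44, or 60% against 43.6% of all genes. Without replicate 4 of both groups, and with the block, 2 of them also rose with valproate, against none over all arrays. Of all genes, 5208 and 4575 passed with valproate in those settings in place of 3402. Without replicate 4 of both groups, 2 Notch genes fell with acriflavine in place of 1.

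Of 21 other shed membrane proteins tested, 3 rose and 8 fell with TGFb1, 11 rose and 3 fell with acriflavine against TGFb1, and 9 rose and 1 fell with valproate against TGFb1. These are 52.4%, 66.7% and 47.6% of the 21, against 18.4%, 43.6% and 31.3% of all genes. With the replicate block 12 in place of 8 fell with TGFb1, and 3 in place of 1 fell with valproate. Their median difference was -0.30, 0.35 and 0.36 in that order. CDH1, E-cadherin, averaged 9.43 ± 0.125 with acriflavine (SD, n = 3) and 7.22 ± 0.231 with valproate (SD, n = 3), against 6.58 ± 0.252 with TGFb1 (SD, n = 4) and 8.98 ± 0.688 in control cells (SD, n = 4). It fell by 2.40 ± 0.26 (SE) with TGFb1 and rose by 2.85 ± 0.28 (SE) with acriflavine, while valproate minus TGFb1 was 0.63 (adjusted p = 0.104). ICAM1 rose by 1.30 with acriflavine and 1.49 with valproate, and TNFRSF1B, a TNF receptor that ADAM17 sheds, rose by 1.14 with acriflavine. The adhesion molecule ALCAM rose by 1.22 with valproate. With TGFb1, the proteoglycan SDC1 rose by 1.12 and the ephrin ligand EFNB2 by 0.92. CDH2, N-cadherin, rose by 0.48 with TGFb1 and by 0.64 with valproate against TGFb1. SDC1, EFNB2 and CDH2 were the only 3 of the 21 to rise with TGFb1. Of the 8 that fell, only CDH1 is given here with its value. Without replicate 4 of both groups, 4 of the 21 fell with valproate in place of 1, where 5208 of all genes passed in place of 3402.

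**Figure D4:**
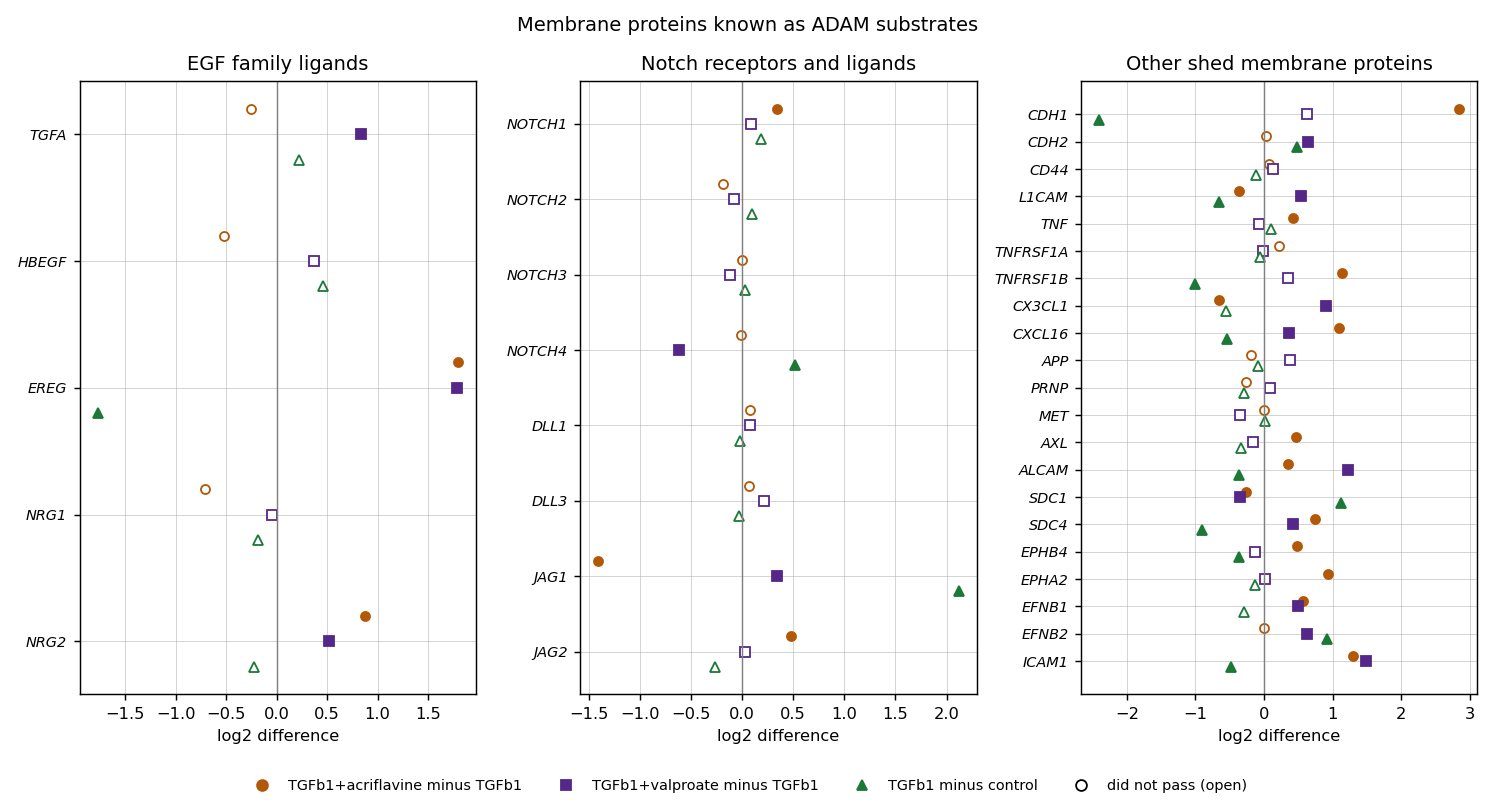
Log2 differences (horizontal axis) for EGF family ligands, Notch receptors and ligands and other shed membrane proteins, in TGFb1 plus acriflavine minus TGFb1 (circles), TGFb1 plus valproate minus TGFb1 (squares) and TGFb1 minus control (triangles). Filled symbols passed at an adjusted p of 0.05 and open ones did not. CDH1 lies at -2.40 with TGFb1 and at 2.85 with acriflavine, and JAG1 at 2.12 and -1.41.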

How the data were processed

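PANC-1 RNA of 14 samples was read on Affymetrix 3-prime arrays. The deposited values are log2 intensities made by RMA (background correction, quantile normalization and median polish) with affy 1.44.0, per the submitters' processing notes; which arrays were normalized together is not given in the sources used here. The number of arrays limits the precision, and p-values measure the spread between these samples.

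Of 49193 probe sets, 44898 were assigned to 1 gene, 1825 to several and 2470 were unnamed here; 44871 matched a RefSeq table by gene identifier and 0 symbols changed. Each of 18129 genes was represented by its brightest probe set. The dimmest 40%, 7252 genes, were left out, so 10877 were tested. All 14 arrays entered a limma 3.58.1 fit (lmFit, eBayes; R 4.3.3) with a mean for each group, with Benjamini-Hochberg adjustment over genes at 0.05 in 6 comparisons. Scripts were tested on simulated data.

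The members and the gene lists were chosen with earlier results of these data known. Named genes were all 7 members, the 6 genes most correlated with ADAM19, and from each list up to 4 called genes with the largest difference per comparison; a few list genes that did not pass are named for their roles. Deviations from the group means of same-numbered TGFb1 and control arrays correlated at 0.387, 0.359, 0.543 and 0.705, but at -0.258, 0.151 and 0.589 over replicates 1 to 3 alone. For acriflavine against TGFb1 they correlated at -0.00047, 0.398 and 0.368, and for valproate against TGFb1 at -0.100, -0.638 and -0.577. Only for TGFb1 against control were they positive for every replicate number. With the replicate as a block, 3148 genes passed for TGFb1 against control in place of 1997. Alternatives covered the filter, the probe set, scaling, the variance model, the groups fitted, the block and leaving out arrays. Promoter motifs were searched with Python 3.11.15. Only the 250 bases before each start were searched.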

Additional observations from a re-analysis of the deposited data

Results flagged for a closer look

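In 2 of the 14 groups of 4 arrays tested (7 genes in TGFb1 and control cells), 1 array lay far from the other 3, its gap to the nearest, as a share of the group's range, exceeding Dixon's 95% limit. Chance alone passes this in about 1 of 20 groups. ADAM12 in control replicate 4 was 6.63, with the next value at 6.94. ADAM9 in control replicate 1 was 11.6, with the next value at 11.87. ADAM12 passed no comparison with or without that array, and ADAM9 passed for TGFb1 minus control without it.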

How the results depend on the processing

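Counts of genes that passed stayed within 1.5 times in 141 of 150 cases. For TGFb1 against control, 1997 genes passed over all arrays, 963 in the 2 groups alone, 3148 with the replicate block (all 1997 among them), 3149 without TGFb1 replicate 4, 3155 without replicate 4 of both groups and 3547 with replicates 4 as a batch term. For valproate against TGFb1, 3402 passed, with 2263 in the 2 groups alone and 5208 without replicate 4 of both groups. Without TGFb1 replicates 2 and 4 and control replicate 4, 5364 passed for valproate against TGFb1 and 6292, in place of 3991, for valproate against control. The last setting and the batch term were chosen after seeing the data. Leaving out 1 array at a time gave 1387 to 3149 genes for TGFb1 against control, 2588 to 4397 for valproate against TGFb1, 3748 to 5614 for acriflavine against TGFb1, 4237 to 6114 and 3064 to 5052 against control for acriflavine and valproate, and 4725 to 6455 between the inhibitors. The causes were not tested. Of 1026 member differences under settings other than another probe set, 957 kept direction and side of the threshold, 29 turned sign with no call, 30 gained a call, 10 lost one and 0 turned sign while called. These counts include the ADAM19 differences that are given without a test. With the block, ADAM17 for valproate against control was -0.22 (adjusted p = 0.0578). ADAM10 then passed for acriflavine (0.36, adjusted p = 0.0213) and valproate (0.34, adjusted p = 0.0347) against TGFb1. ADAM19 for valproate minus TGFb1 was 0.64 with the block, a value given without a test. The block changed no other call of the members besides ADAM19. Of 144 differences read from another probe set, 27 had the opposite sign. For ADAM19 these included 11759381_at, at -0.112 and -0.088 against control with acriflavine and valproate, again given without a test. A value with a test had passed on 1 side for ADAM12 11722199_at (0.53 for valproate minus TGFb1, 0.70 for valproate minus control, -0.72 for acriflavine minus valproate). The same held for ADAM12 11722200_s_at (0.50 for valproate minus control, -0.48 for acriflavine minus valproate) and ADAM15 11760450_x_at (-0.029 for acriflavine minus valproate). How far low signal limits ADAM12 and ADAM8, whose means lie near the limit for testing, was not tested.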
